A study of Mus musculus with 4 samples.

Results

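The genes of the constitutive proteasome were followed in 4 ATAC-seq peak lists from newborn mouse heart. The set held 38 genes out of 21887 protein-coding genes on the autosomes, X and Y. It comprised 7 genes of the 20S alpha ring, 7 of the 20S beta ring, 18 of the 19S cap, 2 for base assembly chaperones and 4 for activators, with the immunoproteasome subunits left out. A gene was counted in a list when the summit of a peak, its point of highest signal, lay within 1 kb of either end of the gene (a boundary peak).

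In ATAC-seq a transposase cuts open DNA, and the cut fragments are sequenced, so that a peak is a region cut more often than its surroundings. The samples were 2 WT libraries and 2 libraries from miR-187 overexpressing mice, all at postnatal day 0 (P0), and the comparison asked how more miR-187 relates to chromatin openness. Per the study's methods, the transgenic mice carried mmu-miR-187 at Rosa26 under the Tek (Tie2) promoter, which is active in endothelial and some blood-forming cells, on a C57BL/6J background. The labels call the material heart, whereas the study describes heart cells captured on CD31 beads for this assay. The study describes the animals of this comparison as homozygous for the knock-in (KI/KI) and +/+, while the labels give no zygosity. Neither source says how many animals went into a library, so the spread within a group may be technical.

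The lists differed in length and depth. The WT lists held 9458 (replicate 1) and 12318 peaks (replicate 2), and the miR-187 lists 7502 (replicate 1) and 1483 (replicate 2). The smallest background read density in each list, recovered from the peaks' fold and p-value, was about 1750, 5230, 2020 and 1030 reads per Mb in the same order. It was taken as the estimate of depth, and the density around other peaks was the same or higher. The miR-187 replicate 2 library stood apart as the shortest and shallowest by this estimate. A missing peak means in the following only that none was listed. Of 15 endothelial markers, 3, 3, 2 and 1 had a boundary peak, among them Cdh5, Kdr and Tek, while Pecam1, which encodes CD31, and Vwf had none in any list. Of 12 cardiomyocyte markers 2, 0, 0 and 0 had one, of 7 fibroblast markers 2, 4, 1 and 0, and of 4 erythroid markers 0 in every list. Since 21.0%, 29.9%, 19.4% and 3.07% of all protein-coding genes had a boundary peak, the share of endothelial markers was above that background in miR-187 replicate 2 alone, where it rested on Cdh5. The share of fibroblast markers was above the background in both WT lists and below it in both miR-187 lists. Cardiomyocyte and erythroid markers were below it in every list. These markers did not identify the material as 1 cell type, and the part of cell makeup in the results below was not tested.

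The proteasome degrades proteins that carry ubiquitin chains. Its 20S core is a barrel of stacked rings, in which alpha subunits form the gate and beta subunits hold the proteolytic sites, and the 19S cap binds, deubiquitinates, unfolds and feeds in the substrate. The subunit genes lie scattered over the genome, are expressed in all tissues, and are induced together by NFE2L1 through antioxidant response elements when proteasome activity is short.

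The promoters at which the lists most often placed a peak are shown first, because they are the DNA on which the counts below rest. A boundary peak was listed in 3 of the 4 libraries at 11 members, and in all 4 at none. For 8 of these 11 the RefSeq promoter table (GRCm38.p6) held the start region, and the 250 bases before the start are printed 5′ to 3′ on the gene's own strand. They are Psma2 at chr13:14612992-14613241 (plus strand), Psma4 at chr9:54950609-54950858 (plus), Psmc4 at chr7:28050093-28050342 (minus), Psmd8 at chr7:29180674-29180923 (minus), Psmd11 at chr11:80428365-80428614 (plus), Psmd12 at chr11:107479278-107479527 (plus), Psme2 at chr14:55591102-55591351 (minus) and Psme3 at chr11:101315963-101316212 (plus). Psma3 at chr12:70974373-70974622 (plus) is added because its annotated start site, which lies inside the gene's outer boundary, had a peak in all 4 lists. Psma3 was picked after its values were seen. Listed peaks overlapped the printed bases in 3 libraries, except at Psma3 (2) and Psme3 (1), where the others lay downstream of the start. Capitals mark each match, on either strand, to the motifs described after the sequences.
Psma2: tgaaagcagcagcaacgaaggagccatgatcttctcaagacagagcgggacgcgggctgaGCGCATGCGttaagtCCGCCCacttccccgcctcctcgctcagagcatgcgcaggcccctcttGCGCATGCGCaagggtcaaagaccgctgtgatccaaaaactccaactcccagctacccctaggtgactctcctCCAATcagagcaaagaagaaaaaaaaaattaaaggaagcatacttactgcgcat
Psma4: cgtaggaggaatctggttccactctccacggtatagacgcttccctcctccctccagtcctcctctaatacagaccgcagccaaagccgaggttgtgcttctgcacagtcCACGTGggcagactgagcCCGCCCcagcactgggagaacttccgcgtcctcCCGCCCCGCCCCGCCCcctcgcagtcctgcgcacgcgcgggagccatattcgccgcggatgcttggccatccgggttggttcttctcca
Psmc4: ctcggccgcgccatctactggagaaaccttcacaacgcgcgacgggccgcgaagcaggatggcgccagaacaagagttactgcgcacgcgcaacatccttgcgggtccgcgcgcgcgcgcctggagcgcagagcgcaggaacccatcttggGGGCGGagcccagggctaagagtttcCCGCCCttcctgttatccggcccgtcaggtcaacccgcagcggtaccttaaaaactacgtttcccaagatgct
Psmd8: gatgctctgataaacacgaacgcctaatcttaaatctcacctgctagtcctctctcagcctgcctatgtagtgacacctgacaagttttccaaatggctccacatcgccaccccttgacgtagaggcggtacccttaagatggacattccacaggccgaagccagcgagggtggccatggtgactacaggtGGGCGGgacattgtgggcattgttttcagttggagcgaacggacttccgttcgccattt
Psmd11: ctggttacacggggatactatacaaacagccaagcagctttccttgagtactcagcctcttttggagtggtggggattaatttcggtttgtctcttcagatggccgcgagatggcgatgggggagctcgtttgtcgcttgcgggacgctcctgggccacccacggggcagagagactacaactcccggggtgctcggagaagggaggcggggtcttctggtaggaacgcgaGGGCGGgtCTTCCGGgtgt
Psmd12: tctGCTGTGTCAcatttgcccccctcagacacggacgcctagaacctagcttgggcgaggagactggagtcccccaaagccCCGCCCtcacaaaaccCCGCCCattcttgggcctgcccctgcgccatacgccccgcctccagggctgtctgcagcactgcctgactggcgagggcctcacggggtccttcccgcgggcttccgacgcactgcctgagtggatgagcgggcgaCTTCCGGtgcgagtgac
Psme2: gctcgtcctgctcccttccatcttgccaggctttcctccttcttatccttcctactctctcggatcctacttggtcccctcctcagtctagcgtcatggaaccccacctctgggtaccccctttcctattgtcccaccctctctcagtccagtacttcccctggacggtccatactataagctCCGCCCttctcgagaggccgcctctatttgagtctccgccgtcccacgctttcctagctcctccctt
Psme3: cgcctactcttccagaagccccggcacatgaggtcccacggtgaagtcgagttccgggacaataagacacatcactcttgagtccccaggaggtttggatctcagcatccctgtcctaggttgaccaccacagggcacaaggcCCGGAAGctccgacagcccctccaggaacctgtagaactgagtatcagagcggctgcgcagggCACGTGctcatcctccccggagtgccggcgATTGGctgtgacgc
Psma3: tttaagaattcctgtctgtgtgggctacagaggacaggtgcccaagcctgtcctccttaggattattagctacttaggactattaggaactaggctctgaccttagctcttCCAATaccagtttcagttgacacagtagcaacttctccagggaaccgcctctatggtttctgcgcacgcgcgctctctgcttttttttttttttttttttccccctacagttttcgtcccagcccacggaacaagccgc

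The motifs searched on both strands were the antioxidant response element core TGACNNNGC, the CCAAT box CCAAT, the GC box GGGCGG, the ETS site CCGGAAG, the NRF1 site GCGCATGCG, the YY1 site ATGGCGGC and the E-box CACGTG. Matches of different motifs, or of 1 motif on both strands, may overlap. Of the 38 members, 32 had a promoter in the table and were compared with 17492 promoters of the same 250 bases. The antioxidant response element core was found in 6 members (18.8%) against 10.5% of all promoters, namely Adrm1, Psmb5, Psmb6, Psmc6, Psmd9 and Psmd12. Among promoters whose gene had a boundary peak in any list, it was found in 4 of 27 members, against 13.0% of all. The printed Psmd12 promoter carries it near its 5′ end on the opposite strand. The ETS letters were found in 10 members (31.2%) against 9.15% of all promoters and, among genes with a boundary peak in any list, in 9 of 27 members against 15.4% of 6784 promoters. These 10 were Psmc1, Psmc2, Psmc6, Psmd2, Psmd4, Psmd6, Psmd11, Psmd12, Psme3 and Psme4. None was among the searched genes of the 20S core, of which Psmb1, Psmb2 and Psmb7 had no promoter in the table. A difference between core and cap was not tested.

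The other motifs are given in the same way. GC boxes were found in 20 members (62.5%) against 42.7% of all promoters, and among genes with a peak in 18 of 27 members against 62.8%. CCAAT boxes were found in 12 (37.5%) against 36.5%, and among genes with a peak in 9 of 27 against 38.1%. These are sites of general promoter factors, SP1 for the GC box and NF-Y for the CCAAT box. The E-box was found in 3 members (9.38% against 6.65%), and among genes with a peak in 2 of 27 against 8.42%. The NRF1 letters were found in Psma2 alone (3.12% against 1.96%, and 3.52% of promoters with a peak), and the YY1 letters in 0 members against 1.2% and 2.08%. None of these motifs was tested for a difference. The members' promoters had a median GC content of 58.0%, against 55.2% in all promoters and 60.4% in those whose gene had a peak. Their ratio of observed to expected CpG was 0.6 or more in 26 of 32 (81.2%), against 45.2% and 74.0%. These are descriptions of letters, and binding of a factor was not tested.

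Boundary peaks were listed more often at the proteasome genes than at protein-coding genes at large in each library. The count was 18 of 38 (47.4%) in WT replicate 1, where 21.0% of all protein-coding genes had one. The deeper WT list, replicate 2, held 26 (68.4%) against 29.9%. Among the miR-187 lists, replicate 1 held 19 (50.0%) against 19.4% and replicate 2 held 3 (7.89%) against 3.07%. At least 1 list held a boundary peak for 32 members (84.2%), against 38.1% of all protein-coding genes. The members' share was thus above the share of all genes by 26.4, 38.5, 30.6 and 4.82 percentage points in the 4 libraries. The excess in points also changed with how many peaks were kept, and the cause of this was not tested. With each list limited to its 1483 strongest peaks, which leaves miR-187 replicate 2 whole, the excess was 0.594, 4.98, 8.39 and 4.82 points. With −log10 q of at least 5 it was 1.9, 24.7, 11.3 and -0.256 points.

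**Figure D1:**
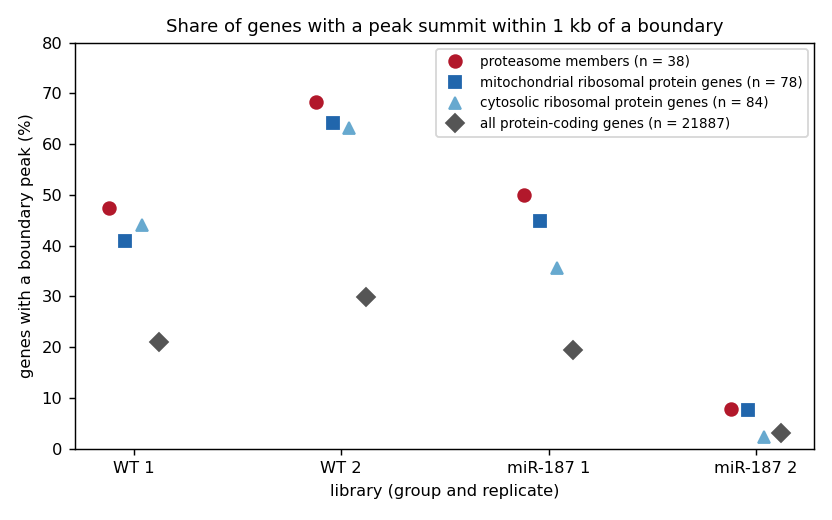
Share of genes (percent, vertical axis) with a peak summit within 1 kb of a gene boundary in each library (horizontal axis, group and replicate), for the 38 proteasome genes (circles), 78 mitochondrial ribosomal protein genes (squares), 84 cytosolic ribosomal protein genes (triangles) and all 21887 protein-coding genes (diamonds), 1 value per library and no error bars. The proteasome share was above the share of all genes in each library, from 7.89% against 3.07% in miR-187 replicate 2 to 68.4% against 29.9% in WT replicate 2.

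The groups did not separate. WT libraries held 22 ± 5.66 members and miR-187 libraries 11 ± 11.3 (mean ± SD, n = 2 each), a difference of -11 (exact two-sided permutation test, p = 0.667, smallest possible p = 0.333). The groups overlapped, because miR-187 replicate 1 (19) lay above WT replicate 1 (18) and miR-187 replicate 2 alone was low. The excess over all genes was 32.4 ± 8.59 percentage points in WT and 17.7 ± 18.2 in miR-187 libraries (n = 2 each), a difference of -14.7 (exact permutation p = 0.667). Without miR-187 replicate 2 the difference in members was -3. The libraries had the same order by estimated depth and by member count, and the part of depth in the difference was not tested. Expected counts after thinning each library to the lowest read density were 10.3 and 5.21 for WT and 12.5 and 3 for miR-187 (difference -0.0356). Here miR-187 replicate 2 set the density, so its 3 was fixed, while thinning could only lower the other counts. WT replicate 2, with the most members before thinning, fell below WT replicate 1, so the thinned counts are not a like-for-like comparison. Equal numbers of top peaks per list gave a difference of 1 in the other direction.

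Members found in several lists were then counted against all genes. Both WT lists held 15 members (39.5%), against 15.8% of all protein-coding genes, and both WT lists together with miR-187 replicate 1 held 8 (21.1%) against 9.59%. At least 3 lists held 11 members (28.9%) against 10.5%, and all 4 lists held 0 against 1.29%. Since the members had the higher share in each single list, the counts were also read among genes already present in a list.

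Among genes already listed, the shares of the members were closer to those of all genes. Of 26 members in WT replicate 2, 15 (57.7%) were also in WT replicate 1, against 52.8% of all genes, and 14 (53.8%) were in miR-187 replicate 1, against 50.9%. Of the 15 members in both WT lists, 8 (53.3%) were in miR-187 replicate 1 against 60.7% of all genes, and 4 (26.7%) were in neither miR-187 list against 36.5%. Those 4 were Psmb3, Psmb6, Psmc5 and Psmd5. In the other direction, Psmc3, Psmd4 and Psmd6 were in neither WT list among the 22 members with a boundary peak in a miR-187 list (13.6%), against 14.2% of all genes in a miR-187 list. Over all genes, listed or not, these were 7.89% of members and 2.95% of protein-coding genes. The number found in both WT lists alone rested on single libraries, being 9 or 5 when WT replicate 1 or 2 was left out and 12 or 7 when the first or second miR-187 library was. The 7 are the members in both WT lists other than the 8 (53.3%, against 60.7% of all genes) in miR-187 replicate 1. For the other counts the share of all genes is not given, so they are not read as a result about the members.

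**Figure D2:**
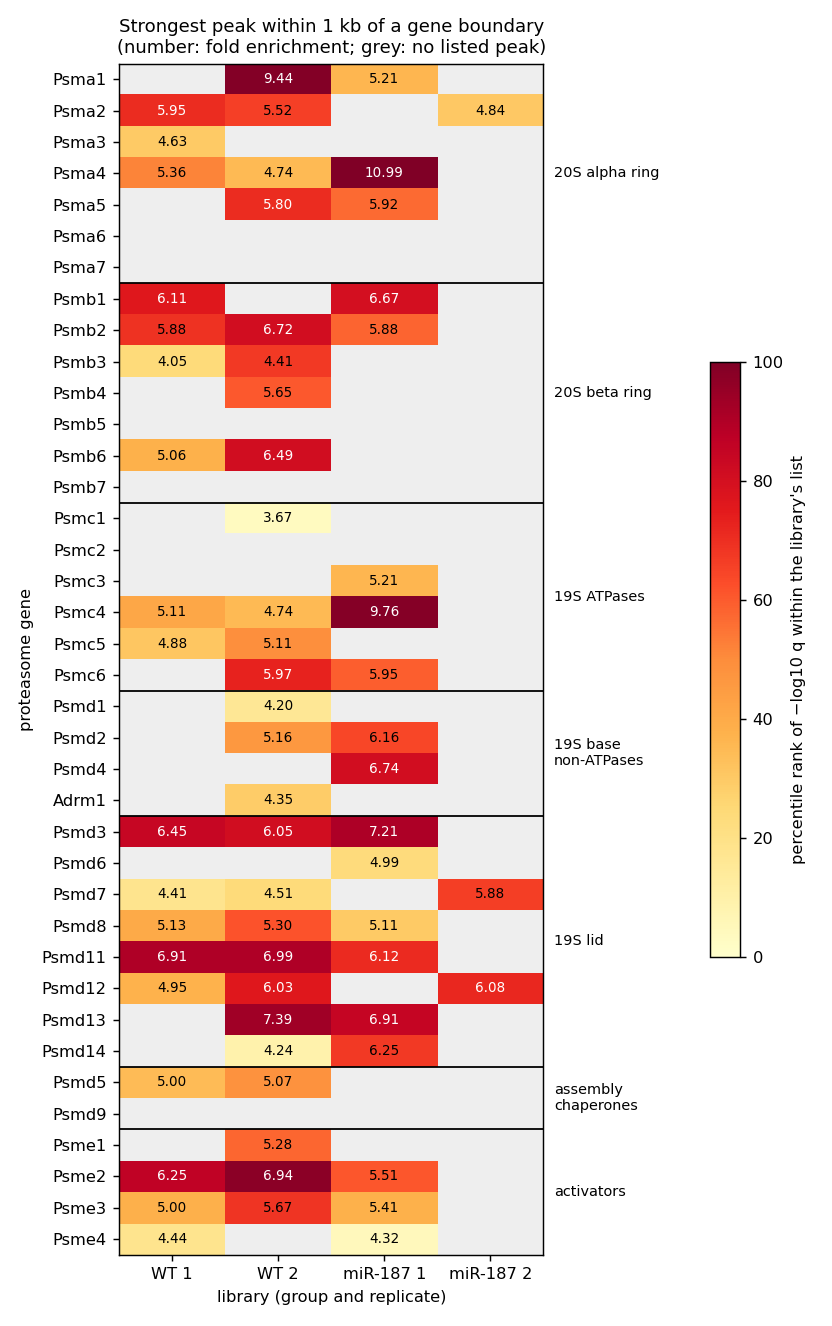
Strongest boundary peak of each of the 38 proteasome genes (rows, grouped by structure) in each library (columns). The number is the fold enrichment, the colour is the percentile rank of −log10 q within that library's list, and grey marks no listed peak within 1 kb of a boundary. The lid genes have a peak in most cells of the first 3 columns, and the column of miR-187 replicate 2 holds 3 peaks, at Psma2, Psmd7 and Psmd12.

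In the following, fold is the enrichment over the local background at the summit that the authors' peak caller wrote, and the rank is the percentile of the peak's −log10 q within its own list. The 20S alpha ring had boundary peaks at 3 and 4 of its 7 genes in the WT lists and at 3 and 1 in the miR-187 lists, given in order of replicate as in the sentences that follow. Psma4 had a fold of 5.36 and 4.74 in the WT lists and of 10.99 in miR-187 replicate 1. The last was the highest fold among member peaks, at rank 99.7 with 19 overlapping reads, against ranks of 51.6 and 35.0 in WT. It spanned chr9:54950532-54951198 and lay over the printed promoter with its 4 GC-box matches.

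Psma1, which encodes another subunit of this ring, had no listed boundary peak in WT replicate 1 or miR-187 replicate 2. Its fold was 9.44 in WT replicate 2 (rank 99.1, chr7:114275821-114276293) and 5.21 in miR-187 replicate 1 (rank 36.2). Psma4 and Psma1 therefore had their high values in opposite groups, each in 1 library. Psma2 had a fold of 5.95 and 5.52 in WT and 4.84 in miR-187 replicate 2, and was absent from the miR-187 replicate 1 list. Psma5 was listed in WT replicate 2 (5.80) and miR-187 replicate 1 (5.92), with nearly the same fold.

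The beta ring had boundary peaks at 4, 4, 2 and 0 of its 7 genes. Psmb2, the beta-ring gene in most lists, had 5.88 and 6.72 in WT and 5.88 in miR-187 replicate 1. Psmb1 had 6.11 in WT replicate 1 and 6.67 in miR-187 replicate 1. The gene for the caspase-like catalytic subunit, Psmb6, had 5.06 and 6.49 in WT and no listed peak in either miR-187 library. The same held for Psmb3, which is structural and had the lowest folds of the ring (4.05 and 4.41). Psmb4 was listed in WT replicate 2 only. Psmb5 and Psmb7, which encode the chymotrypsin-like and trypsin-like catalytic subunits, had none in any list.

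The 19S ATPases, which form the ring that unfolds substrates, had boundary peaks at 2, 4, 3 and 0 of 6 genes. Psmc4 resembled Psma4, with a fold of 5.11 and 4.74 in WT (ranks 41.2 and 35.0) and 9.76 in miR-187 replicate 1 (rank 98.5, chr7:28049931-28050238). Psmc5 had 4.88 and 5.11 in WT and was in neither miR-187 list. Psmc3 had a single peak, in miR-187 replicate 1 (5.21). Psmc6 had 5.97 in WT replicate 2 and 5.95 in miR-187 replicate 1, and Psmc1 a peak in WT replicate 2 only, which was the weakest of the members (3.67, rank 3.29).

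The non-ATPase genes of the base, which include the ubiquitin receptors, had 0, 3, 2 and 0 peaks at 4 genes. The scaffold gene Psmd2 had 5.16 in WT replicate 2 and 6.16 in miR-187 replicate 1. Psmd1, the other large scaffold, and Adrm1, a ubiquitin receptor, were listed in WT replicate 2 only, and the receptor gene Psmd4 in miR-187 replicate 1 only (6.74, rank 80.5). None of the 4 was listed in both libraries of either group.

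The lid, which removes ubiquitin from the substrate, had boundary peaks at 5, 7, 6 and 2 of 8 genes, and all 8 were in at least 1 list. Psmd11 had 6.91 and 6.99 in WT and 6.12 in miR-187 replicate 1, at ranks 89.9, 90.0 and 70.9. Psmd3 had 6.45, 6.05 and 7.21 in the same 3 lists, and Psmd8 had 5.13, 5.30 and 5.11. The order of the groups was not the same at these genes, and at Psmd8 the values were nearly level. The next 2, Psmd7 and Psmd12, were the lid genes listed in miR-187 replicate 2 and absent from miR-187 replicate 1. Psmd7 had 4.41 and 4.51 in WT and 5.88 in miR-187 replicate 2. Psmd12 had 4.95 and 6.03 in WT and 6.08 in miR-187 replicate 2. The deubiquitinase gene of the lid, Psmd14, had 4.24 in WT replicate 2 (rank 9.20) and 6.25 in miR-187 replicate 1 (rank 67.3). Psmd13 had 7.39 and 6.91 in those lists, and Psmd6 a single peak in miR-187 replicate 1 (4.99).

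Of the base assembly chaperones, which help to build the ATPase ring, Psmd5 had 5.0 and 5.07 in WT and no listed peak in miR-187 libraries, and Psmd9 had none in any list. The activators are alternative caps of the 20S core, and had 3, 3, 3 and 0 peaks at 4 genes. Psme2, part of the interferon-inducible PA28 cap, had 6.25 and 6.94 in WT (ranks 86.1 and 97.5) and 5.51 in miR-187 replicate 1 (rank 60.8). Its partner Psme1 was listed in WT replicate 2 only. Psme3, the nuclear activator, had 5.0 and 5.67 in WT and 5.41 in miR-187 replicate 1. Psme4 had 4.44 in WT replicate 1 and 4.32 in miR-187 replicate 1.

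The members' peaks were then compared in strength with those at other genes, with 18, 26, 19 and 3 member peaks in the 4 libraries. The median fold was 5.09, 5.41, 5.95 and 5.88 in the 4 libraries, against 5.49, 5.26, 5.68 and 5.47 over all protein-coding genes with a boundary peak. The median rank was 39.0, 63.7, 60.8 and 66.1, against 59.6, 61.9, 56.7 and 54.3. WT replicate 1 was the library whose median rank was lower for members than for all genes, and there 7 of 18 were above the middle of the list, against 61.2% of all genes with a boundary peak. The other libraries had 16 of 26, 13 of 19 and 2 of 3 members above it, against 62.1%, 56.7% and 52.8%. The median rank was 51.4 ± 17.4 in WT and 63.4 ± 3.77 in miR-187 libraries (n = 2 each), a difference of 12.1 (exact permutation p = 0.667). Without WT replicate 1 that difference was -0.238.

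**Figure D3:**
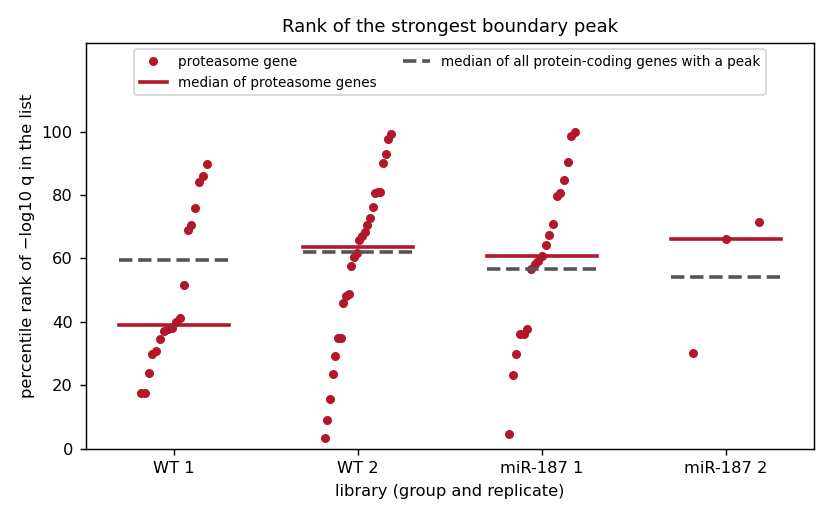
Percentile rank of −log10 q within its list (vertical axis) of the strongest boundary peak of each proteasome gene that had one, by library (horizontal axis). Points are genes, spread sideways in rank order, solid lines are the members' medians and dashed lines the medians over all protein-coding genes with a boundary peak. The solid line lies under the dashed one in WT replicate 1 (39.0 against 59.6) and over it in the other 3 libraries.

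The depth behind each peak was small. The number of reads overlapping at the summit of a member's strongest peak ranged from 5 to 13 and from 9 to 29 in the WT libraries, and from 6 to 19 and from 5 to 8 in the miR-187 libraries. Its median was 8, 15, 9 and 7, against 9, 15, 10 and 7 over all genes with a boundary peak. When each list was limited to its 1483 strongest peaks, the length of the shortest, 2, 4, 5 and 3 members kept one, against 4.67%, 5.54%, 4.77% and 3.07% of all genes. Psmd11 and Psme2 were in this selection in both WT lists, and Psmd13 in WT replicate 2 and miR-187 replicate 1. In a single list it held Psma1 (WT replicate 2), Psma4, Psmc4, Psmd3 and Psmd4 (miR-187 replicate 1), and Psma2, Psmd7 and Psmd12 (miR-187 replicate 2).

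Member peaks sat close to start sites. The strand was known for 54 of the 66 strongest boundary peaks, and the summits of all 54 were at the start-site end of the gene, as were those of 94.3%, 95.2%, 95.3% and 92.5% of all genes in the 4 libraries. Of the members' summits 45 (83.3%) were within 250 bp of the start. By library these were 10 of 14 (71.4%), 21 of 23 (91.3%), 12 of 15 and 2 of 2, against 61.8%, 64.3%, 64.9% and 57.8% of all genes with a boundary peak and a known strand. Median summit positions were 32.5, 22, 6 and 3.5 bp downstream of the start. The farthest were Psmb3 in WT replicate 1, at -833 bp (upstream), and Psme4 in the same library, at 663 bp downstream.

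**Figure D4:**
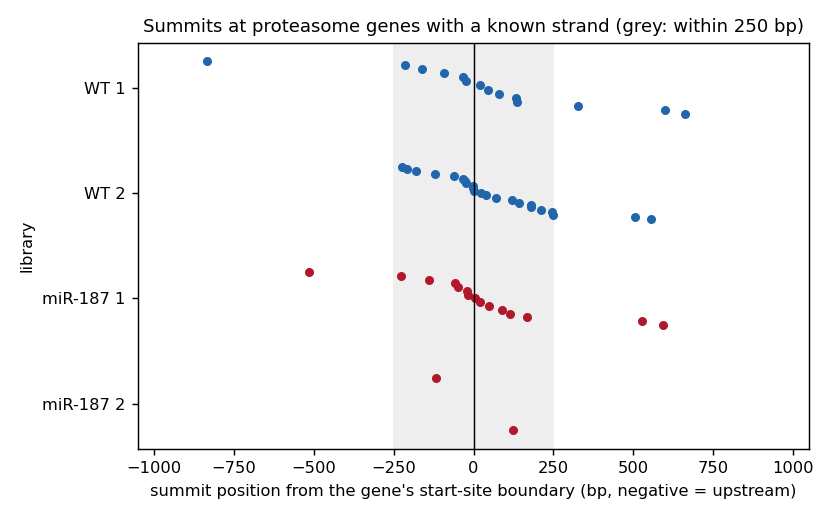
Position of the summit of each strongest boundary peak relative to the start-site boundary of its gene (horizontal axis, bp, negative is upstream) for the proteasome genes with a known strand, by library (rows, points spread vertically in order of position). The grey band marks 250 bp on either side and holds 45 of 54 summits.

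Peaks in different lists mostly covered the same DNA. Of the 15 members in both WT lists, 14 had overlapping peaks, against 86.4% of all such genes, with a median of 90 bp between summits (115 bp over all such genes). The same was true of 13 of 14 members shared by WT replicate 2 and miR-187 replicate 1 (89.6% of genes, median 47.5 bp against 99 bp) and of 9 of 10 shared by WT replicate 1 and miR-187 replicate 1 (84.2%). With miR-187 replicate 2, WT replicate 1 had overlapping peaks at 2 of 3 shared members (77.1% of genes, median 95 bp against 136 bp). WT replicate 2 had them at 3 of 3 (84.0%), with summits farther apart than over all such genes (median 236 bp against 115 bp). The miR-187 libraries had 0 members with a boundary peak in common, against 1.83% of all protein-coding genes. None of the 3 members of miR-187 replicate 2 (Psma2, Psmd7 and Psmd12) was in replicate 1, against 59.5% of all genes listed in replicate 2.

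Some peaks cannot be given to 1 gene. At Psma2 (with Mrpl32), Psma4 (Hykk and AY074887), Psmb3 (Pcgf2), Psmc5 (Ftsj3), Psmd8 (Catsperg1), Psmd13 (Sirt3) and Psme2 (Rnf31) the summit was also within 1 kb of another protein-coding gene. This held for 6 of 18, 7 of 26, 4 of 19 and 1 of 3 member peaks, shares of 33.3%, 26.9%, 21.1% and 33.3% that were near the 30.4%, 29.4%, 29.7% and 30.7% of all genes with a peak.

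Of the 6 members without a boundary peak, some had one at a start site that lies inside the outer boundary of the gene. This second measure was added after the values were seen. Psma6 had a peak at its annotated start in both WT lists, with a fold of 5.85 and 6.25 and the summit 37 bp upstream in both, and Psmc2 had one in WT replicate 2 (5.15) and miR-187 replicate 1 (5.32). Psma3 had peaks within 1 kb of its start in all 4 lists, with a fold of 4.3 and 8.61 in WT and 7.65 and 5.15 in miR-187 libraries, although its outer boundary, 5340 bp away, had a peak in WT replicate 1 only. Psma3 was thus high in the deeper library of each group. Measured at annotated starts, 15, 26, 17 and 3 of 32 members (46.9%, 81.2%, 53.1% and 9.38%) had a peak, against 22.4%, 32.2%, 21.0% and 3.23% of 17492 genes. Psma7, Psmb5 and Psmd9 had no peak by either measure, and for Psmb7 no start site was given.

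The members were set beside the ribosomal protein genes, most of which are likewise broadly expressed and code for subunits of complexes. The cytosolic list was taken by symbol and includes tissue-restricted paralogues such as Rpl3l and Rpl10l. Cytosolic ribosomal protein genes (84) had a boundary peak in 44.0%, 63.1%, 35.7% and 2.38%, and the proteasome share was higher by 3.32, 5.33, 14.3 and 5.51 percentage points. Mitochondrial ribosomal protein genes (78) had one in 41.0%, 64.1%, 44.9% and 7.69%, and the proteasome share was higher by 6.34, 4.32, 5.13 and 0.202 points. The mean differences of 7.11 and 4 points were positive in 4 of 4 libraries, and p was 0.125 for each in an exact two-sided sign-flip test, the smallest that 4 libraries allow (0.125 also after Benjamini-Hochberg adjustment over the 2 comparisons). A difference from either list was thus not shown, and peaks with −log10 q of at least 5 turned both means to -0.157 and -2.77.

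Genes that work with the proteasome were counted in the same way. Of 33 matched genes, 19, 19, 13 and 1 had a boundary peak, beside 21.0%, 29.9%, 19.4% and 3.07% of all protein-coding genes. At least 1 list held 23 of the 33, beside 38.1% of all protein-coding genes. Of the 6 matched assembly factors, 6 and 5 were listed in the WT libraries and 2 and 0 in the miR-187 libraries, and the difference was not tested. Of the 5 in both WT lists, 4 were in neither miR-187 list, beside 36.5% of all genes in both WT lists. Among them the alpha-ring chaperone genes had folds of 5.0 and 4.76 (Psmg1), 4.71 and 6.4 (Psmg2), 6.71 and 5.46 (Psmg3) and 5.56 and 7.32 (Psmg4) in the WT lists, and Psmg2 also had 5.13 in miR-187 replicate 1. Psmd10, a chaperone of the base, had 5.92 and 6.84 in WT. Only Psmg2 and Pomp, of the 6, were listed in miR-187 replicate 1.

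The immunoproteasome gene Psmb9 had high boundary peaks in both WT lists (7.58 and 8.38, ranks 98.2 and 99.0) and none in the miR-187 lists. Of all genes in both WT lists, 36.5% were likewise in neither miR-187 list. Whether the Psmb9 peaks also lay near another gene was not examined. Psmb8 had 5.45 in WT replicate 1 and 5.67 in miR-187 replicate 1. Psmb10, Psmb11 and Psma8 were in no list. The deubiquitinase genes Usp14 (4.94, 8.20 and 4.88) and Uchl5 (6.82, 5.95 and 4.55) were listed in both WT libraries and in miR-187 replicate 1. The same 3 lists held Ubb, which encodes ubiquitin (5.08, 5.44 and 5.09), the unfoldase gene Vcp (6.86, 5.97 and 4.35), and the shuttle genes Rad23b (7.08, 7.37 and 6.60) and Ubqln4 (4.69, 9.05 and 8.78). Rps27a, a ubiquitin fusion gene, was the gene of this list found in miR-187 replicate 2 (5.56), beside 5.39 and 7.59 in WT.

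The regulators of proteasome gene transcription gave mixed values. Nfe2l1 had a fold of 4.84 in WT replicate 2 and of 4.87 in miR-187 replicate 1. Nfe2l2, which encodes NRF2, had 4.31 and 4.20 in WT and no listed peak in miR-187 libraries. Ngly1, whose enzyme processes NFE2L1, had 5.11 and 5.14 in WT and 5.77 in miR-187 replicate 1, and Ddi2, the protease of that pathway, had none.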

How the data were processed

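ATAC-seq was performed on 2 WT and 2 miR-187 libraries. The processing notes list, without role or order, Bowtie2 2.2.6, SAMtools 1.10, deepTools 3.3.2, MACS2 2.2.7.1, HOMER 4.11, FastQC, ChIPseeker, DiffBind and mm10 (GRCm38). Handling of duplicate and mitochondrial reads is not given in the sources used here. The authors deposited 1 peak list per library, with a score, a fold ratio at the summit, a −log10 p, a −log10 q and the summit offset for each peak. Total reads were not given, so the number of reads at a peak and its background were solved from the deposited fold and −log10 p (a Poisson tail, 200 bp reads, tolerance 0.0005), which succeeded for 100% of peaks. Depth is therefore an estimate, taken from the smallest background of each list, and no counting interval was given.

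Each peak of the assembled chromosomes (1 to 19, X, Y) was assigned to RefSeq genes (GRCm38.p6) with its summit within 1 kb of a boundary, in Python 3.11.15 with numpy 2.4.6, pandas 2.3.3 and scipy 1.17.1, and drawn with matplotlib 3.10.9. Groups were compared by exact permutation over the 6 assignments of libraries. The scripts were tested on simulated data. The members, gene lists and tests were chosen with earlier results of these data known. All 38 members are named, and values in each library are given for those in 2 or more lists. Other pathway genes have values where both lists of a group held them, and Nfe2l1 and Psmb8 were added after their values were seen. Promoter sequence is shown for members in 3 or more lists and, chosen later, Psma3. Promoters of Psmb1, Psmb2, Psmb7, Psmc3, Psmd3 and Psmd7 and the gene Paaf1 were not matched. Alternatives covered the window, peak strength, list length, depth, replicates and pairing.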

Additional observations from a re-analysis of the deposited data

How the results depend on the processing

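Of 78 alternative values for the group and list comparisons, 66 kept the direction of the difference or, for the number of members in both WT lists alone, stayed within 1.5 times. Another 5 moved further and 7 reversed. Pairing the libraries, by number or crossed, cannot change a difference of group means, so those values are among the 66 by design. The smallest possible p was above 0.05 in all these tests, so p-values say nothing about stability. Differences that kept their direction could still shrink, as that in members did from -11 to -6 with −log10 q of at least 5 and to -0.0356 after thinning to the lowest read density. The cause was not tested. When each list was limited to its 1483 strongest peaks, the group difference became 1 member and 3.82 percentage points, 2 members were in both WT lists alone, and the difference from mitochondrial ribosomal genes was -2.97 points. With −log10 q of at least 5, 1 member was in both WT lists alone, the differences from cytosolic and mitochondrial ribosomal genes were -0.157 and -2.77 points, and miR-187 replicate 2 held no member, so that the median rank could not be compared. Measuring at any annotated start site, chosen after seeing the data, turned the difference in median rank to -2.63. Leaving out each library in turn gave group differences of -19 to -3 members, -27.6 to -1.88 percentage points and -0.238 to 24.4 in median rank (the reversal being without WT replicate 1), 5 to 12 members in both WT lists alone, and differences from cytosolic and mitochondrial ribosomal genes of 4.72 to 8.38 and 3.22 to 5.26 points. With an arm of 1 library these are values without a test. The numbers of members in both WT lists alone under these settings are given without the share of all genes, and are not read as a result about the members.

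With replicate numbers as a block (replicate block), the differences were -11 members (p = 1), -14.7 points (p = 1) and 12.1 in median rank (p = 0.5, exact sign-flip, smallest possible 0.5). Nothing in the labels says that numbers mark pairs, and libraries with the same number deviated from their group means with a correlation of -0.116 over 21887 genes. The crossed pairing, added after seeing the data, gave exact sign-flip p = 0.5, 0.5 and 1. The number of lists that held a gene changed for 30 of 38 members with equal numbers of peaks, 26 with −log10 q of at least 5, 8 with a 250 bp window and 3 with a 3 kb window. Depth limits single peaks, since a median of 7 to 15 reads lay under a member's peak.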
